A study of Arabidopsis thaliana with 12 samples.

Results

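Transcript levels at midnight were compared with those at midday in seedlings of Arabidopsis thaliana that overexpress CIRCADIAN CLOCK ASSOCIATED 1 (the CCA1-ox line, Columbia background). The comparison used 6 of the 12 arrays of the series, chosen by the time of day in their titles: 3 arrays of 12am and 3 of 12pm. With lights on at 6am, these times are ZT18 and ZT6, with ZT (zeitgeber time) the number of hours since the lights came on. Both groups were the aerial part of plants aged 10 days that carried the overexpressed gene. The agar held 1% sucrose, and each day had 16 h of light, followed by 8 h of dark. ZT6 therefore lay in the light and ZT18 lay 2 h into the dark, 12 h away. No wild-type arrays were analysed here, so what follows describes the overexpressing line alone. Time of day and presence of light cannot be told apart in this comparison.

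The plant circadian clock is a set of transcription factors that repress one another in turn, which gives each factor and its targets a preferred time of day. CCA1 is a MYB-related repressor that normally accumulates around dawn, and plants that express it constantly lose much of their rhythm in constant light. In a light and dark cycle, light and dark signals, sugar supply and temperature still drive daily changes in photosynthesis, growth and nutrient uptake.

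Each probe set has 1 deposited log2 expression value per array, and all levels below are on that log2 scale. The detection limit was set at a level of 4, which 14016 of 22746 probe sets reached on at least 3 of the 12 arrays, and these were tested. Array medians of the 6 arrays ran from 6.29 to 6.43, and 39.5% to 40.1% of values lay under 4. Another label, for the hour of harvest, gave a different time from the title on 5 of the 6 arrays and was not used. Between arrays of 1 time, the SD of the log2 difference over the tested probe sets was 0.222 to 0.337 at ZT6 and 0.366 to 0.499 at ZT18. Between a ZT18 and a ZT6 array it was 0.862 to 0.950, so the times differed by more than the replicates did. Of the 13 markers of green aerial tissue 8 were tested, with single values from 3.98 to 14.9, and their mean level was 10.90 to 11.05 on the ZT6 arrays and 10.24 to 10.87 on the ZT18 arrays. Between the times 2 of the 8 passed the test. Of the 9 root markers, 4 had a named probe set and 3 of these were not tested for lack of signal. The fourth, PYK10, a beta-glucosidase gene of root endoplasmic reticulum bodies, stood at 13.02 to 13.39 on all 6 arrays and did not pass the test between the times. Of the 8 seed markers 1 was tested and did not pass, and none of the 5 flower markers had a named probe set. In whole aerial parts, fewer cells of a type and less RNA per cell cannot be told apart.

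A sign of RNA quality moved with the comparison. For 3 control genes (ubiquitin, GAPDH and actin) the array carries probe sets at both ends of the transcript, and the 3' minus 5' signal grows as RNA or its copies become shorter. Its mean over the 3 genes was 4.12, 4.67 and 4.39 on the ZT18 arrays and 3.74, 3.97 and 3.73 on the ZT6 arrays. The ZT18 arrays were all above the ZT6 arrays, and above the 6 arrays of ZT0 and ZT12, which ran from 3.48 to 3.89. The difference was 0.58 on the log2 scale (two-sided exact permutation p = 0.1, the smallest that 3 arrays against 3 allow). A fit with this signal as a covariate is therefore given beside list counts and named genes whose calls it changed. That fit keeps a mean per time, so the slope on the signal comes from the spread within times. Because the signal separates the 2 times, their difference is estimated less precisely there, and its size can move either way. COR27, for example, went from a log2 difference of 5.89 to 6.00, while its adjusted p rose from 1.63e-08 to 1.94e-05. A call lost with the covariate thus need not mean a smaller difference, and the part of the signal in the results was not tested.

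**Figure D1:**
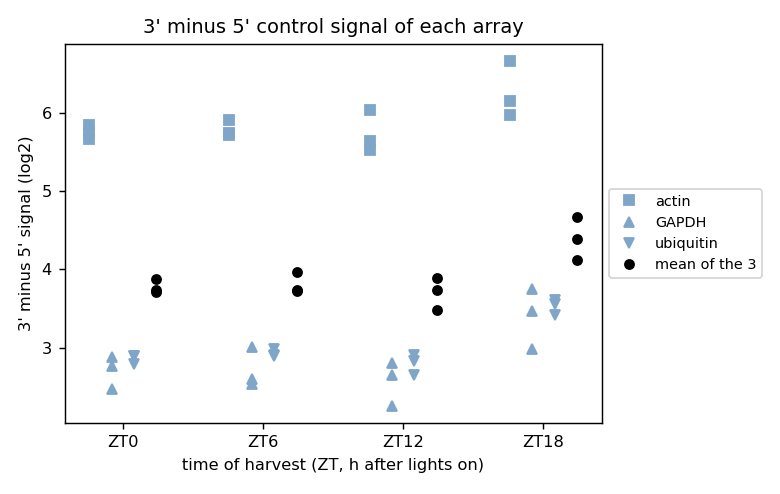
3' minus 5' control signal (log2, y axis) of all 12 arrays by time of harvest (x axis), with 1 symbol per control gene and array and black circles for the mean of the 3 genes. The 3 ZT18 means, at 4.12 to 4.67, lie above the means of all other arrays.

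Rises and falls between midday and midnight were nearly equal in number on the deposited scale. With limma and a Benjamini-Hochberg threshold of 0.05, 6478 of 14016 probe sets passed (46.2%), of which 3193 were higher at ZT18 (22.8%) and 3285 lower (23.4%). With each array centred on its median the split was 3436 higher and 2881 lower, and after quantile normalization 3280 and 3287. Most of the changes were small: 4350 of the calls (67.2%) were under 2-fold, and the median absolute log2 difference of a call was 0.76. At least 2-fold changes were called for 2128 probe sets (15.2%), with 1006 higher (7.18%) and 1122 lower (8.01%) at ZT18. The tail was also balanced, with 77 probe sets at least 8-fold higher and 88 at least 8-fold lower. Across all tested probe sets, 82 were at or above 4 on all ZT18 arrays and under 4 on all ZT6 arrays, and 130 showed the reverse. With the control signal as a covariate, 3466 probe sets passed, and 3137 of the 6478 calls (48.4%) were kept. Of the 2128 calls of at least 2-fold, 1698 (79.8%) also passed with the covariate, and the sign turned for 3. Larger changes tend to lie further from the threshold, so this share does not show that they depend less on the control signal.

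**Figure D2:**
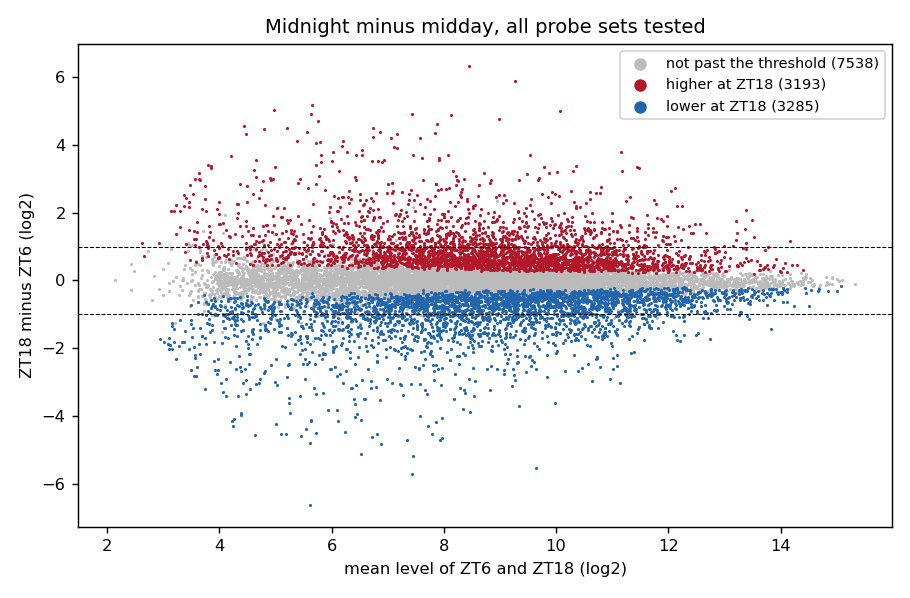
Difference between ZT18 and ZT6 (log2, y axis) against the mean level of both times (log2, x axis) for the 14016 tested probe sets. Red and blue points passed the threshold as higher (3193) and lower (3285) at ZT18, grey points did not, and dashed lines mark 2-fold.

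At the level of genes, each represented by its brightest probe set, 3405 of 7572 passed (45%), 1748 as higher (23.1%) and 1657 as lower (21.9%) at ZT18. These shares are the background for the counts of gene lists below, and a list near or under them is not set apart by its count. With the covariate 1781 of the 7572 genes passed (23.5%). The arrays of the 2 times did not overlap for 55.6% of all genes (28.5% higher and 27.1% lower at ZT18), so a lack of overlap by itself sets no gene apart.

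Genes of the clock and its direct outputs were represented by 5 members of the list of 34 loci, and all 5 passed, 3 as higher and 2 as lower at ZT18. CCA1 itself was not among the 5, nor were the clock genes LHY, TOC1, LUX and the PRR family. The level of the overexpressed gene and of most of the central clock is thus not shown here. COR27, a cold-regulated gene that acts in the clock as a night-time co-repressor, stood at 5.49, 6.49 and 6.98 at ZT6 and at 12.39, 12.15 and 12.10 at ZT18. The 2 sets of arrays were far apart, with the ZT18 arrays closely grouped and the ZT6 arrays spread over more than 1 log2 unit. The difference was 5.89 (SE 0.28), a 59.3-fold rise (adjusted p = 1.63e-08), and it was the largest among named genes detected on all 6 arrays. AT4G33980 showed the same wide separation, with 4.29, 4.67 and 5.97 at ZT6 against 9.86, 9.98 and 9.82 at ZT18. Its rise was 30.0-fold (log2 4.91, SE 0.43, adjusted p = 2.18e-06). AT1G69570 was at 6.36, 5.99 and 6.27 at ZT6 and at 9.04, 8.25 and 8.43 at ZT18, again without overlap, and rose 5.15-fold (adjusted p = 1.04e-06).

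The remaining pair of clock genes was lower at midnight, by much less. GIGANTEA (GI), whose product stabilises the photoreceptor of the evening clock and promotes flowering in long days, stood at 8.56, 8.65 and 8.66 at ZT6 and at 8.22, 7.54 and 7.69 at ZT18. Every ZT18 array lay under every ZT6 array, with ZT18 replicate 1 nearest. The fall was 1.75-fold (log2 -0.81, SE 0.18, adjusted p = 0.00248), and it did not pass with the covariate (adjusted p = 0.184). AT5G52660 fell by 0.73 on the log2 scale, from 8.11, 8.03 and 8.13 to 7.28, 7.32 and 7.50 (adjusted p = 0.000934, and 0.0116 with the covariate). The median of the 5 genes was 2.36, against a median of -0.0013 over all genes tested.

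The 12 largest rises among genes detected on all 6 arrays, COR27 and AT4G33980 among them, ranged from 11.4-fold to 59.3-fold. All 12 kept their call with the covariate. Only 4 of the 12 carry a symbol in the annotation used. EXLA1, an expansin-like gene of the cell wall, rose 13.8-fold from 9.51, 9.22 and 9.04 to 13.35, 12.86 and 12.92 (log2 3.79, SE 0.26, adjusted p = 2.91e-07). UGT85A4, a glycosyltransferase gene, was at 5.98, 5.61 and 5.83 at ZT6 and at 9.79, 9.46 and 9.04 at ZT18, a 12.3-fold rise (adjusted p = 5.10e-08). WRKY22, a transcription factor of immune and dark responses, rose 11.4-fold, from 4.84, 4.96 and 5.38 to 8.85, 8.57 and 8.31 (adjusted p = 3.62e-07). In all 3 genes every ZT18 array lay more than 2 log2 units above every ZT6 array. The 12 genes were picked for large differences without overlap of arrays, so a clear gap follows from that choice.

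Rises from below the detection limit are lower bounds. XTH33, a xyloglucan endotransglucosylase gene, was under the limit at ZT6 (2.35, 3.87 and 2.99) and reached 8.55, 8.55 and 7.62 at ZT18, at least 18.9-fold higher (adjusted p = 5.98e-07). EXPA16, an expansin gene, was just under the limit at ZT6, at 3.98, 3.97 and 3.98, and rose to 6.94, 6.65 and 6.92, at least 7.16-fold. Among genes without a symbol, AT2G41990 and AT3G23550 were each at least 13.4-fold higher at ZT18.

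The largest falls at midnight were similar in size, and 11 of the 12 were at loci that carry no symbol in the annotation used. AT1G60590 fell 52.6-fold, from 10.43, 10.33 and 10.11 at ZT6 to 5.21, 4.20 and 4.31 at ZT18 (log2 -5.72, SE 0.24, adjusted p = 7.73e-09). AT1G10640, the fall with the smallest standard error of these, went from 9.62, 9.79 and 9.68 to 4.86, 5.13 and 5.01 (25.9-fold, SE 0.12, adjusted p = 2.02e-10). In both genes the gap between the times was wider than the spread within a time, as the choice of large falls without overlap requires. CHIL, the chalcone isomerase-like gene whose product assists flavonoid synthesis, fell 15.9-fold from 9.51, 9.58 and 9.62 to 5.45, 5.06 and 6.22 (adjusted p = 5.27e-07). Its ZT6 arrays lay close together, while the ZT18 arrays spread over more than 1 unit. AT1G13650 dropped from 8.76, 8.93 and 9.07 to 2.06, 2.71 and 2.14, near the floor of 2.06, and was thus at least 30.3-fold lower. All 12 of the largest falls, and all 6 of the largest falls to below the limit, kept their call with the covariate.

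**Figure D3:**
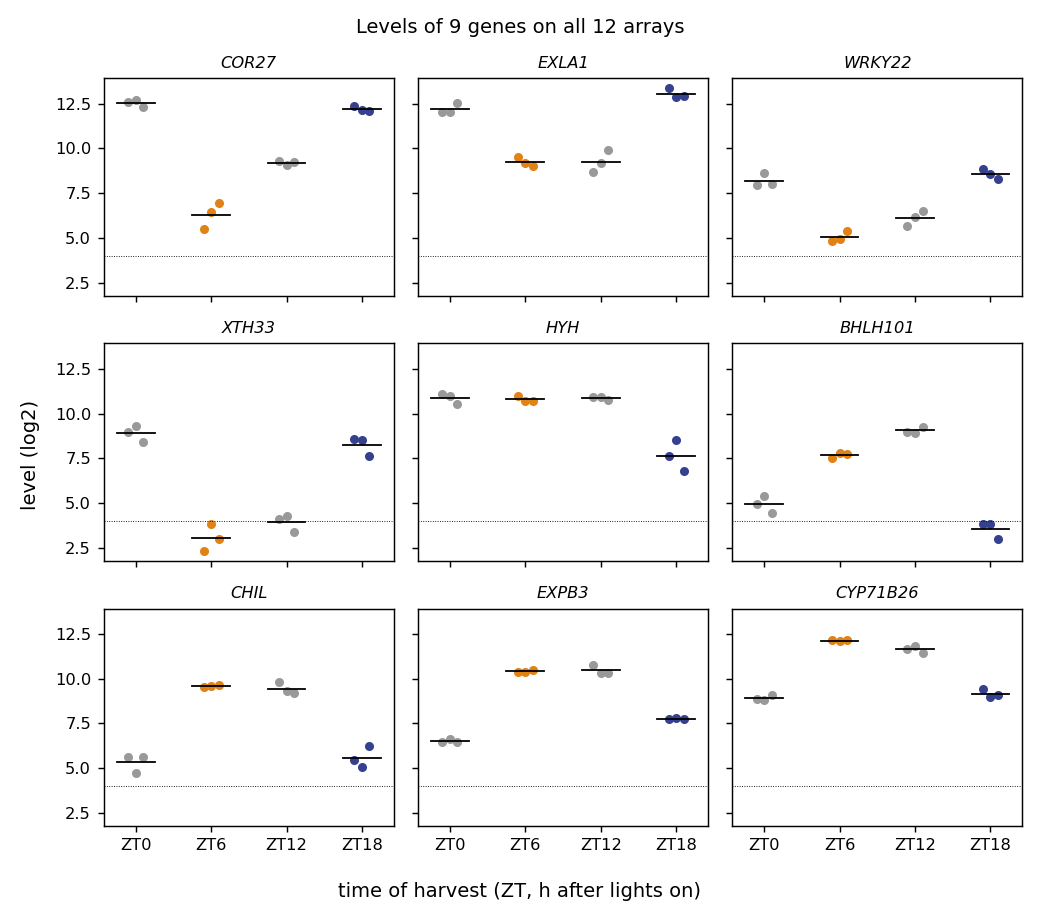
Level (log2, y axis) of 9 genes on all 12 arrays by time of harvest (ZT, x axis). Orange points are the 3 ZT6 arrays, blue points the 3 ZT18 arrays and grey points the arrays of ZT0 and ZT12, with a black bar at each mean and a dotted line at the detection limit of 4. COR27, EXLA1, WRKY22 and XTH33 were higher at ZT18 than at ZT6, and the other 5 genes were lower.

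Iron-deficiency genes fell together. Iron-starved Arabidopsis induces a small group of bHLH transcription factors and peptides that raise iron uptake. All 3 tested members of the iron list of 15 loci were lower at ZT18, with a median of -4.14, and all 3 also passed with the covariate. BHLH101, one of the iron-induced bHLH factors, stood at 7.55, 7.80 and 7.76 at ZT6 and under the limit at ZT18 (3.82, 3.84 and 3.04), at least 13.0-fold lower (adjusted p = 1.28e-07). AT1G47400, another member of the list, fell 36.2-fold from 9.57, 10.41 and 10.16 to 5.09, 5.36 and 4.16 (adjusted p = 2.59e-07). POPEYE (PYE), which restrains the iron response, fell 4.78-fold, from 7.28, 7.60 and 7.93 to 5.59, 5.33 and 5.12 (adjusted p = 1.99e-06). Arrays of the times did not overlap for any of the 3.

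Upstream bHLH factors of the iron response changed in both directions. bHLH121, a regulator that activates the iron-response bHLH genes, rose 2.94-fold from 9.74, 9.67 and 9.74 to 11.36, 11.29 and 11.16 (adjusted p = 7.94e-07). bHLH34, a related activator, fell 4.61-fold from 7.69, 8.04 and 8.03 to 5.24, 6.10 and 5.80 (adjusted p = 5.01e-06). Their partners ILR3 (log2 difference 0.07, adjusted p = 0.598) and bHLH104 (0.24, adjusted p = 0.0831) did not pass. bHLH115, another related factor, fell 1.25-fold from 11.69, 11.58 and 11.59 to 11.37, 11.20 and 11.31 (adjusted p = 0.0134), a call lost with the covariate (adjusted p = 0.621), with median centring and without ZT18 replicate 2 or ZT6 replicate 1. In all, 1 of 7 bHLH genes rose and 3 fell, BHLH101 among them, 3 of the 4 calls held with the covariate, and 2 rose when ZT18 replicate 3 or ZT0 replicate 3 was left out.

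Genes that loosen or rebuild the cell wall changed in both directions. Expansins loosen the wall during growth, and of 12 tested members 4 rose and 6 fell at ZT18 (median -0.98). With the covariate 9 of these 10 calls held. All 3 tested expansin-like A genes rose: EXLA1 as above, EXLA2 from 7.95, 7.52 and 6.71 to 10.50, 10.07 and 10.21 (7.30-fold, adjusted p = 3.62e-06), and EXLA3 from 2.18, 2.34 and 2.34 to 4.59, 3.52 and 4.86 (at least 1.25-fold). Falls were led by EXPA8, which went from 10.26, 9.84 and 10.01 to 7.08, 7.06 and 7.04 (7.88-fold, adjusted p = 3.58e-07). EXPB3, a beta-expansin, went from 10.36, 10.35 and 10.47 to 7.75, 7.78 and 7.77 (6.19-fold, adjusted p = 2.16e-08), with the arrays of each time close together. EXPA15, EXPA4, EXPB1 and EXLB1 also fell, EXLB1 not with the covariate (adjusted p = 0.0772), while EXPA16 was the only EXPA gene to rise. The calls among EXPA, EXPB and EXLB genes were thus mostly falls, with EXPA20 and EXPA21 not past the threshold, and those among EXLA genes were rises.

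Xyloglucan endotransglucosylases cut and rejoin the wall polymer xyloglucan. Of 6 tested genes 5 rose and 1 fell, with a median of 1.53, and 5 of the 6 calls held with the covariate. XTH18 rose 4.04-fold, from 6.14, 6.57 and 6.24 to 8.42, 8.06 and 8.52 (adjusted p = 0.00011), and XTH16 3.46-fold, from 6.45, 6.29 and 6.14 to 8.20, 8.12 and 7.93 (adjusted p = 1.37e-06). XTH32 was the exception, falling 9.33-fold from 10.06, 9.98 and 9.86 to 6.68, 6.62 and 6.94 (adjusted p = 3.87e-08). None of these 3 genes showed overlapping arrays. Of 4 cellulose synthase-like genes 3 rose (median 1.13) and kept their call with the covariate. CSLC04, a xyloglucan backbone synthase gene, rose 2.66-fold (7.63, 7.35 and 7.20 to 9.07, 8.77 and 8.57, adjusted p = 0.000202), and CSLA03 2.54-fold (6.28, 6.31 and 5.88 to 7.25, 7.69 and 7.57, adjusted p = 2.55e-05). IAA29, an auxin-response repressor gene induced in shade and dark, rose 7.03-fold, from 7.15, 7.48 and 7.03 to 9.74, 9.68 and 10.68 (adjusted p = 1.10e-06).

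Transporters of the nitrate and peptide family (NPF) were mostly lower at midnight, with 5 of 6 tested members down, 1 up and a median of -1.36. AT3G21670 (NPF6.4) fell 16.5-fold, from 10.09, 9.87 and 10.03 to 6.20, 6.23 and 5.42 (log2 -4.04, SE 0.28, adjusted p = 2.71e-07). AT2G26690 (NPF6.2) fell 3.71-fold, from 11.02, 10.83 and 10.93 to 9.18, 8.66 and 9.27 (adjusted p = 2.24e-06). The 2 glucosinolate importers moved in opposite directions. GTR1 fell 2.97-fold (9.91, 9.74 and 9.61 to 8.32, 8.33 and 7.90, adjusted p = 0.000147) and GTR2 rose 2.33-fold (6.34, 6.48 and 6.48 to 7.57, 7.65 and 7.75, adjusted p = 0.000396). Of the 6 NPF calls 5 held with the covariate. Of 5 SWEET sugar transporter genes 2 fell and none rose. SWEET17, a vacuolar fructose transporter, fell 1.94-fold (9.20, 9.28 and 9.19 to 8.12, 8.41 and 8.27, adjusted p = 5.78e-05), whereas the call of the other, SWEET1 (log2 -0.51, adjusted p = 0.0144), was lost without ZT18 replicate 3 or ZT6 replicate 1. With the covariate SWEET1 did not pass (adjusted p = 0.168), at the same log2 difference of -0.51.

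Genes of specialised metabolism and detoxification were largely lower at midnight. Of the list of 19 loci of glucosinolate synthesis and methionine chain elongation 2 were tested, and both fell. BCAT4, the aminotransferase that starts methionine chain elongation, went from 11.42, 11.24 and 11.17 to 9.81, 9.42 and 9.30 (3.40-fold, adjusted p = 0.000154). AT2G31790 fell 2.75-fold. Of 7 glutathione S-transferase genes 6 fell and none rose (median -0.62), and 4 of the 6 held with the covariate. With 1 array left out 4 to 6 fell, and only 4 without any 1 of the ZT6 arrays. GSTU20 fell most, from 12.56, 12.47 and 12.29 to 10.33, 10.14 and 10.51 (4.32-fold, adjusted p = 6.39e-07). Of 11 cytochrome P450 genes, mostly of the CYP71B family, 7 fell and none rose (median -0.48), with 4 held under the covariate. Leaving out 1 array gave 5 to 7 falls. CYP71B26 fell 7.76-fold, from 12.16, 12.08 and 12.12 to 9.43, 8.98 and 9.07 (adjusted p = 1.62e-08), and CYP71B35 3.84-fold, from 8.61, 8.69 and 8.67 to 6.84, 7.11 and 6.19 (adjusted p = 4.56e-06). Neither of these genes had overlapping arrays, and both held with the covariate.

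The UGT glycosyltransferases, which attach sugars to hormones, flavonoids and defence compounds, were more mixed. Of 27 tested genes 15 fell and 6 rose (median -0.52), and 12 of these 21 calls held with the covariate. Leaving out 1 array gave 11 to 16 falls and 6 rises. UGT76E11 fell 6.16-fold, from 10.16, 9.93 and 10.14 to 7.77, 7.23 and 7.37 (adjusted p = 5.07e-07), and GT72B1, which glucosylates chlorophenols and monolignols, 4.37-fold, from 8.55, 8.23 and 8.42 to 6.34, 6.02 and 6.45 (adjusted p = 1.26e-06). The flavonol glycosyltransferase gene UGT78D1 fell 1.87-fold, from 11.68, 11.89 and 11.73 to 10.77, 10.87 and 10.96 (adjusted p = 0.000568). UGT74B1, which acts in glucosinolate synthesis, fell 2.53-fold (adjusted p = 0.00171), a call lost with the covariate (adjusted p = 0.106). Rises beside UGT85A4 were UGT71C5, an abscisic acid glucosyltransferase gene that went from 7.97, 7.86 and 7.98 to 9.51, 9.44 and 9.47 (2.90-fold, adjusted p = 6.21e-07), and UGT85A2, UGT72E1, UGT73B1 and SGT at 1.46-fold to 2.14-fold. The call of SGT was lost with the covariate (adjusted p = 0.379).

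The few nuclear photosynthesis genes tested differed little in level. Of the list of 34 light-harvesting and photosystem loci 7 were tested, of which 4 fell and none rose, with a median of -0.29. PSBY, a photosystem II subunit gene, was at 14.24, 14.16 and 14.25 at ZT6 and at 13.99, 13.77 and 13.71 at ZT18, a 1.31-fold fall (adjusted p = 0.00451). LHCB4.2 fell 1.25-fold, from 14.80, 14.83 and 14.83 to 14.52, 14.47 and 14.51 (adjusted p = 0.00106), with no overlap in either gene. None of the 4 calls held with the covariate (adjusted p = 0.342 for PSBY and 0.082 for LHCB4.2), and 2 remained without ZT6 replicate 3. LHCB4.1 stood at 14.83, 14.85 and 14.86 against 14.90, 14.82 and 14.67 and did not pass (adjusted p = 0.641). Of 4 tested members of the list of 19 Calvin cycle loci 1 passed, a smaller share than the 45% of all genes. It was RCA, the Rubisco activase gene, which was 1.22-fold lower (adjusted p = 0.0445). That call was lost with the covariate (adjusted p = 0.367) and without any 1 of the 3 ZT6 arrays, of ZT18 replicates 1 and 3 or of ZT12 replicates 2 and 3. The Calvin cycle phosphatase gene SBPASE, at 13.86, 13.74 and 13.80 against 13.80, 13.62 and 13.44, overlapped between the times (adjusted p = 0.229).

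Among chlorophyll synthesis genes, 1 of 5 rose and 1 fell, and both held with the covariate. HEMA2, for glutamyl-tRNA reductase, rose 2.00-fold (6.67, 6.52 and 6.78 to 7.68, 7.79 and 7.49, adjusted p = 5.80e-05). CHLI2, for a magnesium chelatase subunit, fell 1.59-fold (12.46, 12.56 and 12.37 to 11.94, 11.74 and 11.69, adjusted p = 0.00015). A second gene fell when ZT18 replicate 1 was left out.

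Nuclear genes for assembly of the chloroplast complexes and for organelle RNA editing fell in most cases. Of 19 tested members 13 fell, 1 rose and 5 did not pass (median -0.53), and 6 of the 14 calls held with the covariate. CRR42 fell 2.61-fold, from 10.83, 10.60 and 10.62 to 9.75, 9.12 and 9.01 (adjusted p = 2.81e-05), and CRR41 2.32-fold, from 10.30, 10.12 and 10.19 to 9.11, 8.98 and 8.87 (adjusted p = 0.000162); CRR genes are required for accumulation of the chloroplast NDH complex. CRR21, an RNA editing factor of the same complex, fell 1.99-fold (9.21, 9.58 and 9.50 to 8.24, 8.59 and 8.49, adjusted p = 0.000592). The exception was LPA2, an assembly factor of photosystem II, which rose 1.81-fold from 10.22, 10.21 and 9.97 to 11.18, 11.08 and 10.72 (adjusted p = 0.00016). A second gene rose when ZT18 replicate 3 was left out, and leaving out 1 array gave 10 to 13 falls.

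Transcripts encoded in the plastid genome did not pass as a rule. Labelled RNA was primed with oligo(dT), per the labels, which bears on plastid transcripts because most of them carry no stable poly(A) tail. Of 64 plastid-encoded genes tested, 1 passed by limma (1.56%, with 3 at an unadjusted p under 0.05), namely ycf3, which fell by 0.79 on the log2 scale. In contrast, 44.2% to 46.7% of genes passed on the 5 nuclear chromosomes. None of 40 photosynthesis genes passed, with log2 differences from -0.83 to 0.55 and a median of -0.09. None of 17 ribosomal protein and polymerase genes passed either, with differences from -0.25 to 0.20 and a median of -0.03. The bright atpE, for an ATP synthase subunit, was at 14.97, 14.82 and 14.81 at ZT6 and at 15.14, 14.90 and 14.86 at ZT18, and passed under quantile normalization alone of the settings tried. Some plastid transcripts varied widely within a time: ndhJ, for an NDH subunit, was at 8.90, 7.17 and 7.31 at ZT6 and at 9.81, 7.16 and 6.21 at ZT18, with replicate 1 the highest at both times. With the covariate 3 photosynthesis genes passed as higher and 5 as lower, and 6 of the 17 as higher and 1 as lower. Without ZT18 replicate 1, 3 photosynthesis genes and 1 of the 17 passed as lower. Without ZT18 replicate 2, 1 photosynthesis gene passed each way, without ZT6 replicate 3 1 as higher, and without ZT6 replicate 1, ZT0 replicate 2 or ZT12 replicate 1 1 as lower.

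Genes of carbon storage and use changed in part. The starch, citrate cycle and autophagy lists each had a smaller share of calls than the 45% of all genes. APL3, a large subunit of the starch-synthesis enzyme ADP-glucose pyrophosphorylase, fell 4.50-fold, from 7.11, 6.77 and 6.91 to 4.78, 4.77 and 4.72 (adjusted p = 5.49e-05), and was the only 1 of 4 starch genes to pass. AT3G15450, listed with dark and sugar starvation genes, rose 2.38-fold (10.76, 10.61 and 10.74 to 12.13, 11.92 and 11.80, adjusted p = 1.07e-05). Of 11 citrate cycle and ATP-citrate lyase genes 3 rose and 1 fell. The cytosolic isocitrate dehydrogenase gene cICDH rose 1.57-fold (13.12, 13.07 and 13.01 to 13.61, 13.71 and 13.83, adjusted p = 4.26e-05), the only 1 of these 4 calls that held with the covariate. The fall, of SDH1-1, was lost without ZT18 replicate 2 or ZT6 replicates 1 or 2. In each of those fits 2 genes rose in place of 3. Of 11 autophagy genes 2 rose and 1 fell, and 2 fell when ZT18 replicate 1, ZT0 replicate 3 or ZT12 replicate 1 was left out. ATG8E, for a protein that marks autophagosomes, rose 1.79-fold from 11.04, 10.88 and 11.06 to 12.01, 11.72 and 11.78 (adjusted p = 0.000166). ATG8H fell 1.68-fold (adjusted p = 0.00397), a call lost with the covariate (adjusted p = 0.455).

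Of 4 further cold-regulated genes 1 rose and 2 fell, and of these calls the rise alone held with the covariate. COR15A, which protects chloroplast membranes in the cold, fell 3.07-fold, from 12.93, 12.87 and 13.06 to 11.25, 11.10 and 11.65 (adjusted p = 0.00264, and 0.233 with the covariate). COR47, a dehydrin gene, rose 1.53-fold from 13.27, 13.22 and 13.00 to 13.68, 13.72 and 13.93 (adjusted p = 0.000428), and held with the covariate. LTI30 overlapped between the times and did not pass. COR15B fell 1.66-fold (adjusted p = 0.0256), but not with the covariate (adjusted p = 0.471) or without ZT18 replicates 1 or 2 or ZT6 replicates 2 or 3. Of 4 heat shock and co-chaperone genes 1 rose and 1 fell, and 2 fell without ZT0 replicate 1 or 3. AT5G48570, which encodes the FK506-binding protein ROF2, rose 3.67-fold from 8.06, 7.07 and 7.33 to 9.39, 10.02 and 8.67 (adjusted p = 0.00136, and 0.142 with the covariate). Its ZT18 arrays spread over more than 1 log2 unit, but all lay above the ZT6 arrays. Cpn60beta3, for a chloroplast chaperonin subunit, fell 1.88-fold from 7.40, 7.55 and 7.22 to 6.47, 6.54 and 6.43 (adjusted p = 0.000548), and held with the covariate (adjusted p = 0.0134).

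Among bZIP transcription factors the largest change was that of HYH, a bZIP partner of HY5 in light signalling. It stood at 10.97, 10.72 and 10.67 at ZT6 and at 7.65, 8.55 and 6.78 at ZT18. The ZT18 arrays were the more variable, yet the nearest of them was still 2 log2 units under every ZT6 array, and the fall was 8.73-fold (log2 -3.13, SE 0.32, adjusted p = 6.68e-06). Of 13 bZIP genes 3 rose and 2 fell, a smaller share than the 45% of all genes called. The 2 that fell, HYH and BZIP24 (7.41, 7.47 and 7.06 to 6.35, 6.13 and 6.56, 1.95-fold), kept their call with the covariate, and the 3 that rose did not. Of 7 genes placed in the MADS box list by the search 2 rose and 2 fell, of which 3 held with the covariate. The largest change was that of AT1G30260, which carries no symbol in the annotation used. It fell 2.22-fold from 10.71, 10.52 and 10.67 to 9.53, 9.63 and 9.28 (adjusted p = 6.41e-06). AGL18, a repressor of flowering, rose 1.57-fold, from 9.71, 9.63 and 9.64 to 10.16, 10.32 and 10.43 (adjusted p = 0.000167), while the other rise, of AGL26, was lost with the covariate (adjusted p = 0.27) and without ZT18 replicate 2 or ZT6 replicate 1. Of 5 WRKY genes 2 rose and none fell, and the rise of WRKY22 held in every setting tried. The other, of WRKY47, was lost with the covariate (adjusted p = 0.456) and without any 1 of the 3 ZT6 arrays, of ZT18 replicates 1 and 2, of ZT0 replicate 1 or of ZT12 replicate 2. Without ZT0 replicate 1 or 3 or ZT18 replicate 3, 1 WRKY gene fell.

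Chromatin and protease genes also changed in level. Of 6 histone genes 5 fell and none rose (median -0.45); 3 of the calls held with the covariate, and 3 were made without ZT18 replicate 2 or ZT6 replicate 3. HTR12, the centromeric histone H3 gene, fell 1.95-fold from 7.55, 7.47 and 7.51 to 6.53, 6.43 and 6.67 (adjusted p = 0.000414), and HTB1, a histone H2B gene, 1.97-fold from 9.12, 9.29 and 9.34 to 8.31, 8.44 and 8.05 (adjusted p = 0.000231). Of 14 serine carboxypeptidase-like genes 4 rose and 5 fell, and 5 of these 9 calls held with the covariate. SCPL34 rose 3.98-fold, from 9.16, 9.14 and 9.15 to 11.29, 11.01 and 11.13 (adjusted p = 8.09e-08), a gap far wider than the spread at either time. SAPX, a stromal ascorbate peroxidase gene, fell 2.00-fold (10.53, 10.33 and 10.17 to 8.96, 9.41 and 9.66, adjusted p = 0.000794). Of 7 defensin genes 3 rose and 1 fell, and 1 of these calls held with the covariate. The fall was lost without ZT6 replicate 3, and 2 fell without ZT6 replicate 1. In place of 3, 2 rose without any 1 of the ZT0 or ZT18 arrays and without ZT12 replicate 1. PDF1.2 was near the floor at ZT6 (2.09, 2.12 and 2.15) and spread widely at ZT18 (5.27, 4.37 and 3.35), and its call was lost with the covariate (adjusted p = 0.25). LCR69, a bright defensin-like gene, varied little within a time and rose 1.43-fold from 13.79, 13.87 and 13.77 to 14.33, 14.33 and 14.34 (adjusted p = 3.34e-05).

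**Figure D4:**
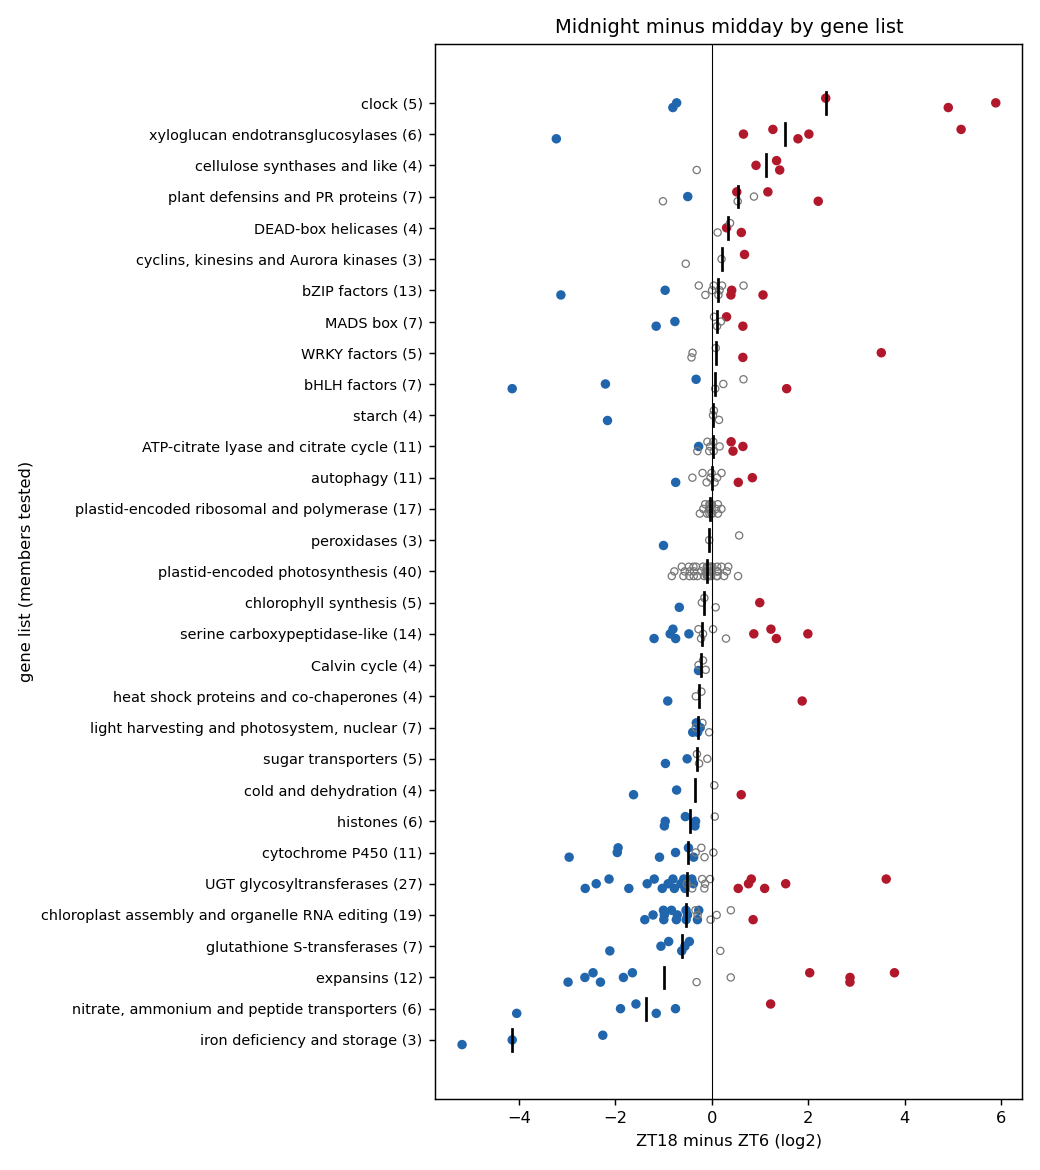
Log2 difference between ZT18 and ZT6 (x axis) of every tested member of the 31 gene lists with at least 3 tested genes (y axis, number of members in brackets), ordered by list median (black bars). Filled points passed the threshold as higher (red) or lower (blue) and open points did not. Medians run from -4.14 for the iron list to 2.36 for the clock list, while all members of both plastid-encoded lists are open points.

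Over the 31 lists with at least 3 tested genes, 139 of 280 distinct members passed, against 45% of all genes. The 57 members of both plastid-encoded lists had no call, and outside them 139 of 223 passed (62.3%). Setting aside lists without a call raises the share by itself. The lists were also chosen with earlier results of these data known, and wrong matches were dropped after values were seen. A share above 45% therefore cannot show that genes of these kinds changed more often than others. With the covariate 82 of the 139 passed in the same direction.

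The other pair of times 12 h apart, ZT0 (dawn) and ZT12 (late in the light), shares no array with midnight and midday. It was used to ask how many of the changes between midnight and midday appear again between dawn and the late day. Both comparisons use the same estimate of the spread from all 12 arrays. A probe set with a low spread is thus more likely to be called in both. Of the 3193 probe sets higher at ZT18 than at ZT6, 2281 (71.4%) were also called higher at ZT0 than at ZT12, 89 (2.79%) were called lower, and 823 were not called. Of the 3285 that were lower at ZT18, 2266 (69.0%) were also lower at ZT0, 77 (2.34%) were higher, and 942 were not called. In the comparison of ZT0 with ZT12, 54% of all tested probe sets were called, 28.4% as higher and 25.6% as lower at ZT0. The shared calls made up 57.3% of the higher and 63.2% of the lower calls between ZT0 and ZT12. For changes of at least 2-fold at ZT18, 74.6% of rises and 81.8% of falls came again. With the covariate, 2562 calls were shared in the same direction in place of 4547.

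Named genes mostly followed this pattern: 11 of the 12 largest rises and all 12 largest falls were called in the same direction between ZT0 and ZT12, where 52.5% of all genes were called (28.6% higher and 23.9% lower). COR27 averaged 12.53 at ZT0 and 9.20 at ZT12, so that its difference there (3.33) was smaller than at midnight against midday. EXPA16 differed more there, by 5.68, with 9.64 at ZT0 and 3.96 at ZT12. Others changed at midnight alone of the 2 comparisons. HYH averaged 10.86 at ZT0 and 10.85 at ZT12, a difference of 0.01 (adjusted p = 0.98), beside its log2 difference of -3.13 at midnight. CSLA03 likewise averaged 6.34 and 6.35 at these times. AT5G48570 averaged 4.31 at ZT0 and 7.50 at ZT12, in the opposite direction (log2 difference -3.18, adjusted p = 1.56e-05), beside its rise at midnight. The difference between the 2 comparisons was not tested for these genes.

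**Figure D5:**
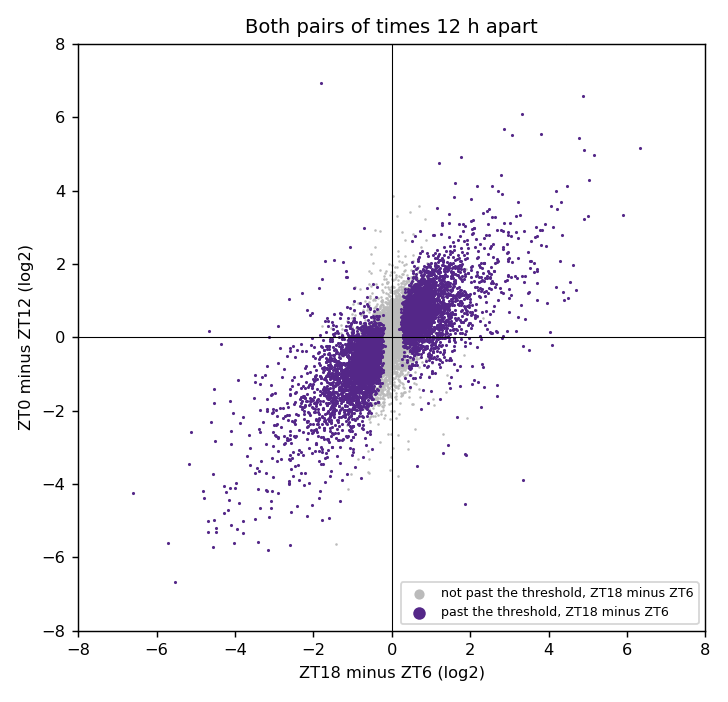
Log2 difference between ZT0 and ZT12 (y axis) against that between ZT18 and ZT6 (x axis) for the 14016 tested probe sets, where purple points passed the threshold for ZT18 against ZT6. Calls shared in the same direction (4547) lie at the lower left and upper right, and the 166 called in opposite directions at the upper left and lower right.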

How the data were processed

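RNA of CCA1-ox seedlings was measured on 12 Affymetrix arrays, 3 per time, and the 3 ZT18 arrays were compared with the 3 ZT6 arrays, grouped by title. The deposited values are log2 expression values per probe set, per the labels; the submitters' processing notes name R 3.1, GCRMA and affy 1.42.3, with no role or order. Background and summary settings are not given in the sources read, and the number of arrays limits the precision. The labels do not state that replicates were grown separately. The p-values thus measure only the spread between arrays and that spread may be technical.

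The 64 AFFX probe sets were left out, and probe sets with 3 of 12 arrays at 4 or more were tested. Of these, 7610 had 1 gene in the platform annotation, 299 had several and 6107 were unlisted and are unnamed here. Symbols were updated through the RefSeq table of TAIR10.1. Differences (ZT18 minus ZT6) were tested, two-sided, with limma 3.58.1 in R 4.3.3 (lmFit with a mean per time over all 12 arrays, eBayes with a mean-variance trend, Benjamini-Hochberg over all tested probe sets). Every adjusted p comes from this fit, except those given with the covariate, which come from the same model with that signal added. Where the dimmer time lay under 4 on all arrays, a fold is given as "at least", against the higher of 4 and each measured value. The code was tested on simulated data.

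Members and gene lists were chosen with earlier results of these data known. Lists were taken by locus or by a search of symbols and synonyms, and 9 wrong matches and 1 search on clone names were dropped after values were seen. Named genes were all clock list genes and the 12 largest rises and falls detected on all 6 arrays. To these came the 6 largest each way from or to below 4. Each of these largest changes had to pass the threshold with no overlap between arrays of the times. Up to 4 called members per list were added, and other genes were named after their values were seen. Alternatives covered the filter, the scaling, the arrays in the fit, the variance model, a replicate block, the 3' minus 5' covariate and leaving out each array. No sequences or coordinates were used.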

Additional observations from a re-analysis of the deposited data

How the results depend on the processing

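Across 22 alternative settings, with filter, scaling, variance model, arrays in the fit or 1 array changed, the number of probe sets past the threshold ran from 5450 to 7055, apart from 3466 with the 3' minus 5' covariate. Leaving out 1 array gave 5450 to 6686 calls, 2073 to 2244 of at least 2-fold and 119 to 143 list members. The covariate gave 2043 calls of at least 2-fold and 100 list members, and lowered the calls shared with ZT0 against ZT12 to 2562 from 4547. Among named genes that passed in either fit, the sign turned with it for PSAE-1 (0.0018), GSTU26 (0.12), HTB11 (0.11) and AT2G21230 (-0.0035), none of which then passed, and for rps3 (0.50) and rps15 (1.22), which passed there and not otherwise; the cause was not tested. Of 126 genes named by rule and past the threshold, 94 held with the covariate and 113 or more under each other setting. The 3' minus 5' difference itself was 0.445 to 0.718 without 1 array and 0.47 to 0.68 for the control genes singly. Equal replicate numbers gave correlations of deviations of 0.337, 0.221 and 0.0681, all positive, and unequal numbers gave -0.302 to 0.191. ZT18 replicate 3 correlated best with ZT6 replicate 2 (0.113). The main fit did not pair arrays by number and so leaves out any structure that equal numbers share. With replicate number as a block (replicate block), 7055 probe sets passed, 2141 of at least 2-fold, 149 list members and 4996 shared calls.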
